A study of Mus musculus with 18 samples.

Results

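The effect of T cells given with a bone marrow graft was set side by side in liver and in intestinal epithelium of the same recipients, on day 7 after transplantation. The comparison used 12 of the 18 libraries of the series, chosen by the tissue code in their descriptions, 6 with the code LIV and 6 with the code SI. BMT recipients were female BALB/cJ mice, irradiated at a lethal dose at 6 to 8 weeks of age, that received 10000000 bone marrow cells plus 1000000 T cells, and they gave 3 liver and 3 code SI libraries. BM recipients, of the same strain, sex, age and irradiation, received 10000000 bone marrow cells alone, and they also gave 3 and 3. The donor strain is not stated in the labels, so nothing is said here of the genetic match between T cells and host. The liver libraries came from whole tissue, whereas the code SI libraries came from isolated epithelial fractions. All 4 groups therefore share irradiation and a marrow graft, and differ in T cells and in tissue. For each gene the BMT effect, the log2 fold change of BMT over BM, was estimated in each tissue, and the difference is the effect in liver minus that in code SI, so a positive difference means a higher effect in liver. The number in each description was read as the mouse, which gave the 2 tissues of 1 recipient a shared term. The labels do not say more on whether replicates were separate animals, and p-values measure the spread between these libraries. The difference was computed for the 12358 of 53379 genes that passed an expression filter in both tissues, of 14134 that passed in liver and 14621 that passed in code SI.

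Activated donor T cells release interferon gamma, which binds a receptor on tissue cells and switches on antigen presentation, guanylate-binding proteins and T cell attracting chemokines. Type I interferons switch on an overlapping group of antiviral genes through a different promoter element, the ISRE. Interleukin 6 acts through Stat3, mainly on hepatocytes, and switches on the acute phase proteins that the liver secretes into blood. When donor T cells recognise the host as foreign, liver and gut epithelium are classic targets of graft-versus-host disease, and the bile acids made in the liver reach the intestine and return from it.

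Each library held 18845483 to 24685933 counts, and levels are given as CPM, counts scaled to a library of 1000000 with TMM factors over the 12 libraries, listed in the order of mice 6, 9 and 10 for BMT and mice 2, 4 and 5 for BM. The code SI libraries are titled large intestine in the labels, yet they carried markers of small intestine. Sis, the brush border sucrase-isomaltase, averaged 1504 CPM in BMT and 723 CPM in BM code SI fractions, and Fabp6, the ileal bile acid binding protein, averaged 2163 and 6308 CPM. The colonic marker Hoxb13 had 0 counts in all 12 libraries. Not all markers had this order. The small intestine marker Lct averaged 0.667 CPM in BMT and 3.11 CPM in BM fractions. The large intestine markers Car4 (402 and 96.7 CPM), Ang4 (296 and 267 CPM), Car1 (47.0 and 229 CPM) and Slc26a3 (78.9 and 92.6 CPM) were present. Sums of 8 markers were 6022 to 11148 CPM in BMT and 15277 to 21853 CPM in BM for small intestine, against 748 to 1562 and 820 to 1727 CPM for large intestine. The fractions are called code SI here, after their descriptions. The liver libraries carried hepatocyte markers, with a mean Alb level of 136678 CPM, and had Vil1, a brush border marker, at 0.142 CPM in BMT and 0.145 CPM in BM livers. The code SI library of BMT mouse 10 held 77 CPM of Alb, 0.0563% of the mean liver level, against at most 0.885 CPM in the other 5 code SI libraries. Counts from the mitochondrial chromosome made up 2.77 to 3.08% of each BMT liver library, against 4.22 to 5.26% of each BM liver library. In code SI they made up 4.83 to 6.01% in BMT and 7.30 to 8.63% in BM libraries, so the share was lower with T cells in both tissues. The part of cell makeup and RNA quality in this share was not tested. Among BM livers, mouse 5 stood apart by high interferon genes. Liver medians without it are given for the interferon gamma, type I interferon and MHC class II lists only. The liver library of this mouse and both libraries of BMT mouse 9 were the 3 read from sequencing lane L001, and the rest came from lane L002.

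Across all genes the T cell effect differed between liver and code SI for 1947 genes, 15.8% of those tested, at an adjusted p below 0.05 by edgeR's quasi-likelihood test. The difference was positive for 1230 genes (9.95%) and negative for 717 genes (5.8%). Counts of called members in the gene lists below are to be read beside these 2 shares. Within-mouse differences between liver and code SI did not overlap between BMT and BM mice for 4486 genes (36.3%), and for 1940 of the 1947 called genes. In liver alone, 814 of these genes rose (6.59%) and 378 fell (3.06%) in BMT against BM recipients. In code SI alone, 1418 rose (11.5%) and 1289 fell (10.4%). The median difference over all tested genes was 0.03 on the log2 scale, with 5% of genes below -1.25 and 5% above 1.68.

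**Figure D1:**
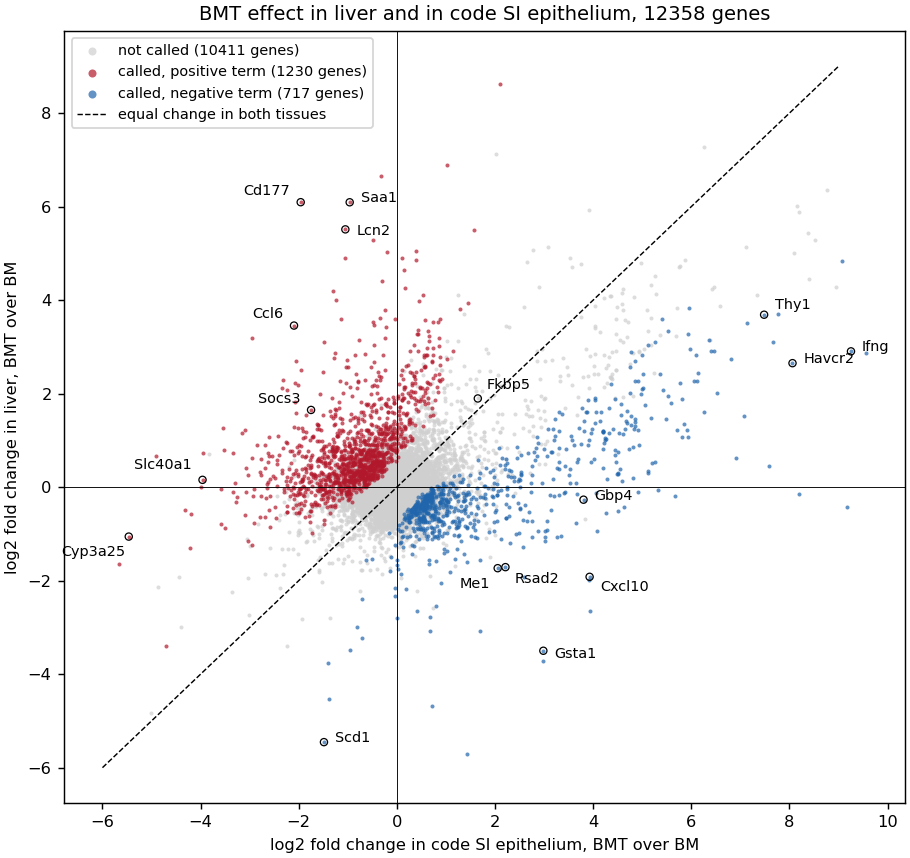
Log2 fold change of BMT over BM in code SI epithelium (x axis) and in liver (y axis) for each of the 12358 genes, coloured by the call of the difference between tissues, with equal change on the dashed line. Called genes with a positive difference (1230) lie above the line, among them acute phase genes such as Saa1, and those with a negative difference (717) lie below it, among them interferon and T cell genes such as Gbp4, Cxcl10 and Thy1.

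Of the 557 genes that passed the test in both tissues separately, 343 rose in both and 80 fell in both. A further 93 rose in BMT livers and fell in BMT code SI fractions, and 41 did the reverse. The difference was called for each of these 134 genes, which opposite calls in the same libraries made likely in advance. Among the 423 genes that moved the same way in both tissues, the size of the change differed for 144. Most called differences came with a call in 1 tissue. Of genes with a positive difference, 613 fell in code SI with no call in liver and 259 rose in liver with no call in code SI. Of genes with a negative difference, 404 rose in code SI with no call in liver and 84 fell in liver with no call in code SI. A further 309 called genes passed in neither tissue alone.

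Genes of the T cell itself rose in both tissues, and some rose more steeply in code SI. Of 21 tested T cell receptor and surface genes, 20 rose in BMT livers and 20 rose in BMT code SI fractions, and 6 had a called negative difference, none a positive one. The list median of the difference was -1.79 log2, against 0.03 for all genes. The 6 calls became 8 without BM mouse 2, 4 without each other mouse, and 3 on lane L002. A gene could pass the expression filter through its BMT libraries alone, so counts of tested members that rose are given as a description, here and for the lists below. Thy1, a T cell surface glycoprotein, had 21.2, 19.5 and 18.7 CPM in BMT livers, against 1.35, 1.56 and 1.64 CPM in BM livers. It had 26.6, 42.9 and 38.9 CPM in BMT code SI fractions, against 0.288, 0.135 and 0.192 CPM in BM code SI fractions. BMT and BM libraries did not overlap in either tissue, and the lowest levels of the 4 groups were those of BM code SI. Thy1 rose by 3.69 ± 0.17 log2 in liver and 7.48 ± 0.31 log2 in code SI (± standard error throughout), a difference of -3.71 ± 0.42 (adjusted p = 0.000829). Zap70, the kinase that signals from the T cell receptor, had 6.0, 5.03 and 6.4 CPM in BMT livers, against 2.46, 3.24 and 1.74 CPM in BM livers. It had 7.22, 10.6 and 10.02 CPM in BMT code SI fractions, against 0.36, 0.0676 and 0.115 CPM in BM code SI fractions, and its difference was -4.44 ± 0.55 (adjusted p = 0.00115). In both tissues every BMT library was above every BM library. Zap70 lost its liver call without BMT mouse 6, 9 or 10 or BM mouse 2 (adjusted p 0.0570 to 0.0932). Summed over 9 T cell markers, the level was 81.2 to 89.3 CPM in BMT livers and 4.93 to 8.35 CPM in BM livers, against 117 to 193 CPM in BMT and 3.18 to 10.3 CPM in BM code SI fractions. In bulk RNA, fewer cells of a type and less RNA per cell cannot be told apart.

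Effector genes of T cells had the same order. Of 19 tested cytotoxic and effector T cell genes, 18 rose in liver and 19 in code SI, and 9 had a called negative difference, with a list median of -2.13 log2. The 9 included Ifng, the gene of interferon gamma itself, Prf1, the pore-forming perforin, Tbx21, the T-bet transcription factor of type 1 T cells, and Cxcr3, the receptor for Cxcl9 and Cxcl10. Ifng had 0.969, 1.19 and 2.64 CPM in BMT livers, against 0, 0.173 and 0.423 CPM in BM livers. It had 2.51, 2.75 and 2.68 CPM in BMT code SI fractions, against 0, 0 and 0 CPM in BM code SI fractions, a difference of -5.98 ± 1.33 (adjusted p = 0.0229). The groups did not overlap in either tissue, although Ifng was not called in liver (log2 change 2.90 ± 0.77, adjusted p = 0.0512). With 0 counts in the BM code SI libraries, Ifng was at least 73.8-fold higher in BMT code SI against a floor of 3 counts for the group, and its fitted difference is no bound. Set at that bound, its difference was -3.30, and the list median stayed at -2.13. Havcr2, the inhibitory receptor Tim-3, had 3.39, 2.66 and 3.64 CPM in BMT livers, against 0.469, 0.289 and 0.739 CPM in BM livers. It had 4.67, 3.48 and 4.56 CPM in BMT code SI fractions, against 0, 0 and 0.0384 CPM in BM code SI fractions. With 1 count in all BM code SI libraries together, its ratio in code SI was 351 with a 95% counting interval of 62.7 to 13914, and its difference was -5.23 ± 0.73 (adjusted p = 0.00194). Cxcr6, a chemokine receptor of tissue T cells, had 4.79, 6.39 and 7.03 CPM in BMT livers, against 0.763, 0.405 and 0.687 CPM in BM livers. It had 8.53, 11.6 and 12.5 CPM in BMT code SI fractions, against 0.18, 0.203 and 0.153 CPM in BM code SI fractions, a difference of -2.58 ± 0.43 (adjusted p = 0.00474). For Havcr2 and Cxcr6 every BMT library was above every BM library in both tissues. The 9 calls became 14 without BM mouse 2, 4 without BM mouse 4, 4 without BMT mouse 9 and 4 on the sequencing lane L002 alone.

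Several genes were high in liver with or without T cells and nearly undetected in BM code SI. S1pr1, the sphingosine 1-phosphate receptor of lymphocytes and endothelium, had 65.3, 73.3 and 89 CPM in BMT livers, against 76, 89.5 and 83.3 CPM in BM livers. It had 4.97, 5.02 and 3.93 CPM in BMT code SI fractions, against 0.036, 0 and 0 CPM in BM code SI fractions, a ratio of 387 in code SI (69.1 to 15332). The liver groups overlapped while the code SI groups did not, and the difference was -8.19 ± 0.55 (adjusted p = 0.000272). The same pattern held for Hsd11b1, the enzyme that reactivates glucocorticoids, which had 1222, 904 and 820.2 CPM in BMT livers, against 1556, 1416 and 955 CPM in BM livers. It had 2.39, 2.43 and 2.68 CPM in BMT code SI fractions, against 0, 0 and 0 CPM in BM code SI fractions, at least 69.5-fold higher when the BM group is set to a floor of 3 counts. Among genes that rose in both tissues and averaged at least 5 CPM in 1 of the 4 groups, which leaves out Havcr2, the differences furthest below 0 were -5.41 ± 0.65 for Cd48, a leukocyte adhesion ligand, and -4.74 ± 0.71 for Rasgrp2, an exchange factor of T cells and platelets. They were followed by -4.55 ± 0.65 for Zbtb16, a transcription factor of innate-like T cells, and by Zap70. The liver calls (adjusted p in brackets) were lost for Rasgrp2 without BMT mouse 6, 9 or 10 or BM mouse 2 or 4 (0.0693 to 0.145) and Zbtb16 without BMT mouse 6 or 9 (0.0778 to 0.0850). The BM code SI libraries held 3, 3 and 1 counts of Cd48, Rasgrp2 and Zbtb16 in all, and endothelial marker sums were 125 to 151 CPM in BMT and 99.1 to 126 CPM in BM livers, against under 2 CPM in every code SI library. How far endothelial and other liver cells contribute to the liver levels of these genes was not tested.

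The genes that interferon gamma switches on differed between the tissues. Of 28 tested interferon gamma response genes, 27 rose in BMT code SI fractions and none fell, while none passed in liver, and the difference was called negative for 21 and positive for none. In liver 0 of the 28 passed by edgeR, by DESeq2 or at an unadjusted p below 0.05. The list median of the difference was -2.67 log2. Irgm2, an immunity-related GTPase that guards against intracellular parasites, had 366, 429 and 528 CPM in BMT livers, against 382, 826 and 1006 CPM in BM livers. It had 79.9, 113 and 141 CPM in BMT code SI fractions, against 18.6, 27.7 and 41.3 CPM in BM code SI fractions. In code SI all BMT libraries lay above all BM libraries, while in liver the groups overlapped, with 2 of 3 BM mice above every BMT mouse. Irgm2 rose by 1.97 ± 0.28 log2 in code SI (adjusted p = 0.000517), did not pass in liver (-0.76 ± 0.34, adjusted p = 0.207), and had a difference of -2.61 ± 0.24 (adjusted p = 0.000299). Gbp4, a guanylate-binding protein, had 87.3, 119 and 150.2 CPM in BMT livers, against 45.7, 107 and 272 CPM in BM livers. It had 19.4, 17.2 and 24.4 CPM in BMT code SI fractions, against 0.432, 2.13 and 1.96 CPM in BM code SI fractions, a difference of -3.92 ± 0.37 (adjusted p = 0.000335). Even where its fold change was large, the level of Gbp4 in each BMT code SI library remained below that in each liver library.

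The promoters of Irgm2, of Cxcl10 and of the type I interferon gene Rsad2 are shown because these interferon genes had called negative differences, and that of Socs3 because its difference was positive. Each run is 120 bases from the 250 before the start, on the gene's strand, from RefSeq on GRCm38.p6, with motif matches in capitals. The runs were placed to hold matches, so the presence of a match in them is no result. The motifs searched on both strands were the ISRE core as GAAA, any 2 bases and GAAA, the element GAS as TTCNNNGAA, and a kappa B form as GGGA, any 2 bases and TTCC.
Irgm2 chr11:58214857-58214976, plus strand: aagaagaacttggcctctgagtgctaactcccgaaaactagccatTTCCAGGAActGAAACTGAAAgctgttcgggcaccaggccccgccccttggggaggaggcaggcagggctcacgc
Cxcl10 chr5:92349020-92349139, minus strand: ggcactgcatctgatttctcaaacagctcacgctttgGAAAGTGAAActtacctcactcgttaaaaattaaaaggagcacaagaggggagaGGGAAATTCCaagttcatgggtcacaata
Rsad2 chr12:26456513-26456632, minus strand: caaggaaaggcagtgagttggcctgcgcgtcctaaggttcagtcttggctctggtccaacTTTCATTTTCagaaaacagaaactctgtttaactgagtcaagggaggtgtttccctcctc
Socs3 chr11:117969457-117969576, minus strand: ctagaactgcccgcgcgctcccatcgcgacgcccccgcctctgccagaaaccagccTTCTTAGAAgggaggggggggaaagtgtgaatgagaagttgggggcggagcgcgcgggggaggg
Irgm2 held a GAS match starting 75 bases and an ISRE core 64 bases before the start, Cxcl10 an ISRE core at 213 and a kappa B match at 159, Rsad2 an ISRE core at 120, and Socs3 a GAS match at 154, with no match overlapping another. The match in Rsad2 reads on the opposite strand. Of all 32851 promoters searched over 250 bases, 2.98% held the ISRE core, 7.02% the GAS form and 1.21% the kappa B form. The RefSeq table matched 71.7% of genes with a negative and 75.1% of genes with a positive difference, under 80%, so a comparison of motif shares between these groups is void. A match describes letters and is no evidence of binding.

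The 3 interferon-induced chemokines that attract T cells through Cxcr3 had called negative differences: -4.97 ± 0.83 for Cxcl10, -4.18 ± 0.82 for Cxcl9 and -3.43 ± 0.95 for Cxcl11. Cxcl10 had 15.6, 15.9 and 42.5 CPM in BMT livers, against 7.33, 25.4 and 243 CPM in BM livers. It had 23.9, 20.8 and 17.1 CPM in BMT code SI fractions, against 0.899, 0.981 and 2.38 CPM in BM code SI fractions. The code SI groups did not overlap, while in liver BM mouse 5 exceeded every BMT liver and the other BM mice did not. Cxcl9 had 282, 326 and 936 CPM in BMT livers, against 37.8, 229 and 2633 CPM in BM livers. It had 75, 77.3 and 58 CPM in BMT code SI fractions, against 0.504, 4.94 and 7.48 CPM in BM code SI fractions, and rose by 4.08 ± 0.60 log2 in code SI (adjusted p = 0.000681). In liver the Cxcl9 level of BM mouse 5 was again above those of all BMT mice. Upstream of these genes, the receptor chains Ifngr1 and Ifngr2 had differences of 0.48 ± 0.21 and -0.23 ± 0.21, neither of them called. Cd274, the checkpoint ligand PD-L1, rose by 2.61 ± 0.35 log2 in code SI, against -0.37 ± 0.58 in liver without a call, a difference of -2.67 ± 0.35 (adjusted p = 0.00145).

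**Figure D2:**
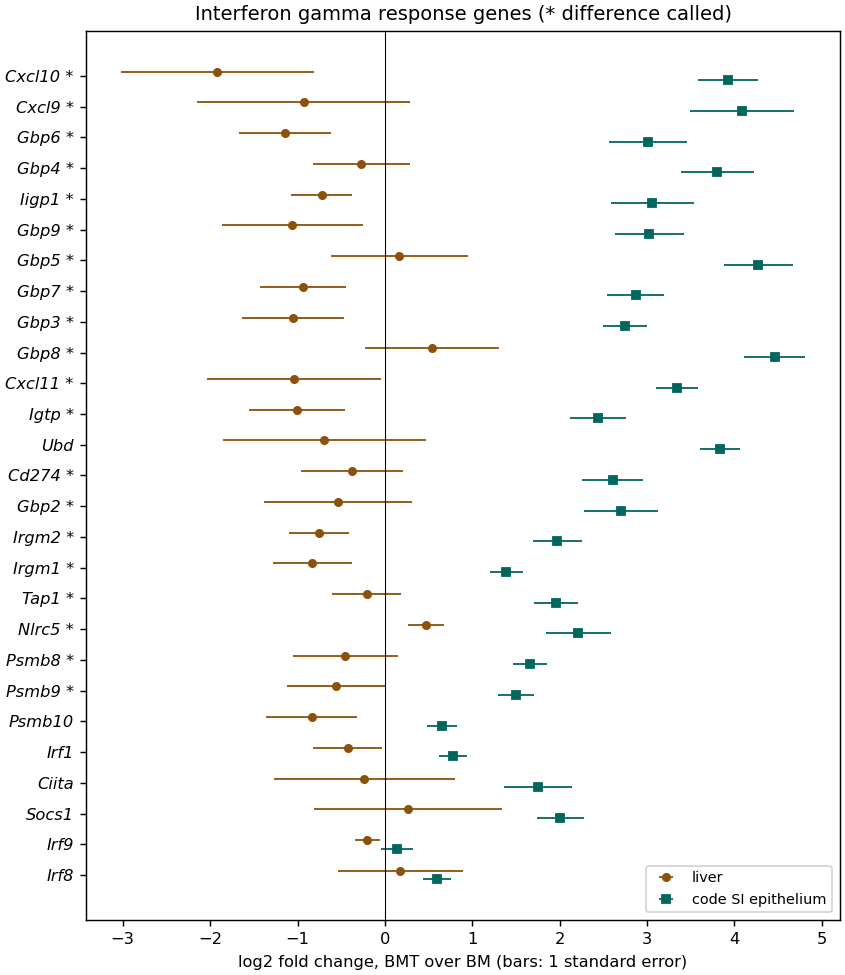
Log2 fold change of BMT over BM with its standard error for 27 of the 28 tested interferon gamma response genes, in liver (circles) and in code SI epithelium (squares), with an asterisk where the difference was called. Of the 27 genes shown, the code SI change passed the test for 26 and the liver change for 0.

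The liver result rested partly on BM mouse 5. Without it, 4 of the interferon gamma response genes rose in liver and the liver median moved to 0.37 log2, against -0.55 with it. Without BM mouse 2, 7 fell in liver. The difference was called negative for 17 to 24 of the 28 when any 1 mouse was left out, and for 9, with 1 positive, on lane L002 alone, which leaves out liver BM mouse 5, liver BMT mouse 9 and code SI BMT mouse 9.

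Type I interferon genes had the same direction with fewer calls. Of 24 tested, 16 rose in code SI and none fell, 1 fell in liver and none rose, and 13 had a called negative difference, with a list median of -1.78 log2. Rsad2, the antiviral protein viperin, was the 1 that fell in liver, with 4.85, 4.92 and 4.27 CPM in BMT livers, against 10.6, 15.7 and 19.3 CPM in BM livers. It had 14.8, 15.7 and 22 CPM in BMT code SI fractions, against 6.11, 1.29 and 4.37 CPM in BM code SI fractions, so the groups separated in both tissues and in opposite directions. Its change was -1.71 ± 0.24 log2 in liver (adjusted p = 0.00575) and 2.21 ± 0.42 log2 in code SI (adjusted p = 0.00326), a difference of -3.99 ± 0.60 (adjusted p = 0.00292). Ifit2, which binds viral RNA, had 6.6, 6.96 and 10.4 CPM in BMT livers, against 8.98, 10.9 and 37.5 CPM in BM livers. It had 12.1, 29.9 and 29.8 CPM in BMT code SI fractions, against 4.5, 3.79 and 4.1 CPM in BM code SI fractions, a difference of -3.42 ± 0.54 (adjusted p = 0.00374). Zbp1, a nucleic acid sensor that can start necroptosis, rose by 2.46 ± 0.29 log2 in code SI, against -0.34 ± 0.54 in liver without a call, and its difference of -2.49 ± 0.41 lost the call on lane L002 alone (adjusted p = 0.0676). The 1 fall in liver became 9 without BM mouse 2 and 7 with no low-count filter. Without BM mouse 5 it stayed at 1, and the liver median of the list was -0.04 log2, against -0.64 with all mice. The 13 calls of the list became 21 without BM mouse 2, 5 without BM mouse 4, 6 without each of the other 4 mice, and 5 on lane L002.

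More RNAs of MHC class I antigen presentation were called as rising in code SI than in liver, although most had no called difference. Of 19 tested class I and peptide-loading genes, 17 rose in code SI, and 1 fell and none rose in liver. The difference was called negative for 7 and not called for 12. H2-Q10, a soluble class I protein made by the liver, was the 1 that fell there, with 772, 864 and 1178 CPM in BMT livers, against 1569, 1895 and 2178 CPM in BM livers. It had 13.4, 17.4 and 17.8 CPM in BMT code SI fractions, against 8.31, 5.68 and 8.67 CPM in BM code SI fractions, so its order was reversed between tissues without overlap, although its level in code SI was far lower. Its difference was -2.13 ± 0.28 (adjusted p = 0.00166), and that of H2-T24, a nonclassical class I gene, was -2.29 ± 0.34 (adjusted p = 0.00288). H2-Q10 lost its liver call without BMT mouse 6 or 9 or BM mouse 4 (adjusted p 0.0884 to 0.12). H2-T24 lost its code SI call without BMT mouse 9 or BM mouse 2 or 4 (adjusted p 0.0560 to 0.0605). Reads of these near-identical class I genes may have been split or lost in counting. The 7 calls became 13 without BM mouse 2 and 3 on lane L002. The class I gene H2-K1 had 1906, 1875 and 1891 CPM in BMT livers, against 629, 1434 and 2021 CPM in BM livers, so BM mouse 5 exceeded every BMT liver.

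Genes of MHC class II, which presents antigen to CD4+ T cells, did not share 1 direction of difference. Of 10 tested, 8 rose in code SI and 1 in liver, and the difference was negative for H2-DMb1 and H2-DMb2, which load peptide, and positive for Ctss and Ifi30, lysosomal enzymes that prepare it. Ctss had 108, 98.6 and 99.9 CPM in BMT livers, against 27.5, 40.2 and 48.6 CPM in BM livers. It had 72.4, 88.2 and 122 CPM in BMT code SI fractions, against 86.7, 81.5 and 77 CPM in BM code SI fractions, a difference of 1.26 ± 0.30 (adjusted p = 0.0225). Only the liver groups separated. Ifi30 had a difference of 1.30 ± 0.36 (adjusted p = 0.039). The call of Ctss was lost without BM mouse 4 or BMT mouse 6 or 9 (adjusted p 0.0702 to 0.0920), and that of Ifi30 without any mouse other than BM mouse 5 (0.0534 to 0.130). Cd74, the invariant chain of class II, had 1296, 1399 and 1135 CPM in BMT livers, against 74, 169 and 1282 CPM in BM livers. It had 1160.2, 1963 and 1532 CPM in BMT code SI fractions, against 176, 204 and 318 CPM in BM code SI fractions. The liver groups overlapped through BM mouse 5, and without that mouse 9 of the class II genes rose in liver, with a median of 2.35 log2 against 0.81 with it. The median difference of the class II list was then -0.12 log2, against -1.13 with all mice, and 2 positive and 0 negative differences were called. Without BMT mouse 6 or 9 no class II difference was called.

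The proteasome, which cuts proteins into the peptides that class I presents, had a lower BMT effect in liver than in code SI for some subunits. Of 22 subunits tested, 11 rose in code SI, 2 fell in liver and 8 had a called negative difference, with a list median of -0.81 log2. The largest were in the interferon-inducible subunits Psmb8 (difference -1.68 ± 0.50) and Psmb9 (difference -1.66 ± 0.45). Psmb8 had 148, 177 and 242 CPM in BMT livers, against 63.7, 220 and 484 CPM in BM livers, with BM mouse 5 above every BMT liver. The constitutive subunit Psmb7 had 84.7, 72.7 and 72.4 CPM in BMT livers, against 121, 104 and 96.4 CPM in BM livers. It had 106, 107 and 79.9 CPM in BMT code SI fractions, against 77, 65.2 and 61.7 CPM in BM code SI fractions, a difference of -1.0 ± 0.19 (adjusted p = 0.00869), and Psma3, of the outer ring, had one of -0.97 ± 0.20 (adjusted p = 0.0115). In liver the Psmb7 groups separated downward without a call. Without BM mouse 4 none of the 22 was called, 16 were without BM mouse 2, and 2 to 6 without any other single mouse. The 11 rises in code SI became 6 without BMT mouse 6, 5 without BMT mouse 9, 16 without BMT mouse 10, 8 without BM mouse 2, 3 without BM mouse 4 and 4 without BM mouse 5. The 2 falls in liver became 0 without BM mouse 4 or any BMT mouse. The code SI rises of Psma3 and Psmb7 and the liver fall of Psma3 each lost their call in 3 or more of the 6 fits that left out 1 mouse.

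The acute phase response went the other way. Of 11 tested acute phase genes, of 27 in the list, 10 rose in BMT livers, and none rose and 2 fell in BMT code SI fractions. The difference was called positive for the same 10 and negative for none, with a list median of 3.48 log2. The other 16 genes did not pass the filter in both tissues, most of them secreted liver proteins. Saa1, serum amyloid A 1, had 10852, 10208 and 11942 CPM in BMT livers, against 46.6, 174 and 259 CPM in BM livers. It had 3.37, 14 and 41.2 CPM in BMT code SI fractions, against 37.1, 29.8 and 49.4 CPM in BM code SI fractions. The BMT livers stood far above the BM livers, whereas the code SI groups overlapped. Saa1 rose by 6.09 ± 0.65 log2 in liver (adjusted p = 0.00233) and its difference was 7.92 ± 0.94 (adjusted p = 0.000983). The close copy Saa2 had a difference of 7.40 ± 0.65 and Saa3 one of 6.46 ± 1.29, and counting may have split reads between these genes. Lcn2, lipocalin 2, which binds bacterial siderophores, had 6658, 7524 and 7885 CPM in BMT livers, against 24.8, 107 and 345 CPM in BM livers. It had 0.374, 0.328 and 0.244 CPM in BMT code SI fractions, against 0.647, 0.304 and 1.11 CPM in BM code SI fractions, a difference of 7.07 ± 0.81 (adjusted p = 0.000838). In liver every BMT level of Lcn2 was above every BM level, and BM mouse 5 was the highest of the BM livers for Saa1, Saa2, Saa3 and Lcn2. The liver calls (adjusted p in brackets) were lost for Lcn2 without BM mouse 4 (0.0502) and Saa3 without BM mouse 4 (0.0584).

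Of the interleukin 6 signalling genes given here, Il6ra and Socs3 had a called difference, and Il6st and Stat3 had none. Il6ra, the ligand-binding chain of the interleukin 6 receptor, had 163, 177 and 138 CPM in BMT livers, against 79.7, 95.6 and 47.4 CPM in BM livers. It had 0.299, 0.262 and 0.696 CPM in BMT code SI fractions, against 2.41, 2.84 and 1.8 CPM in BM code SI fractions. Both tissues separated, upward in liver and downward in code SI, with a difference of 3.61 ± 0.39 (adjusted p = 0.00058). Il6ra lost its liver call without BMT mouse 6, 9 or 10 or BM mouse 2 (adjusted p 0.0529 to 0.119). The shared signalling chain Il6st had a difference of 0.36 ± 0.23 and Stat3 one of 0.29 ± 0.21, neither called. Socs3, the feedback inhibitor that Stat3 induces, had 23.9, 35.9 and 31.8 CPM in BMT livers, against 11, 11 and 6.92 CPM in BM livers. It had 16.3, 20.9 and 25.8 CPM in BMT code SI fractions, against 81.2, 61.8 and 75.7 CPM in BM code SI fractions. It rose by 1.65 ± 0.23 log2 in liver (adjusted p = 0.00539) and fell by 1.75 log2 in code SI (adjusted p = 7.76e-05), a difference of 3.48 ± 0.28 (adjusted p = 0.000272). Socs3 was higher in every BM code SI fraction than in any liver. Lbp, the lipopolysaccharide-binding protein of plasma, likewise rose in liver (2.11 ± 0.19) and fell in code SI (-2.33 ± 0.39), a difference of 4.53 ± 0.44 (adjusted p = 0.000393). With any 1 mouse left out, 8 to 10 of the 11 acute phase genes had a called positive difference, and 7 did on lane L002 alone.

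**Figure D3:**
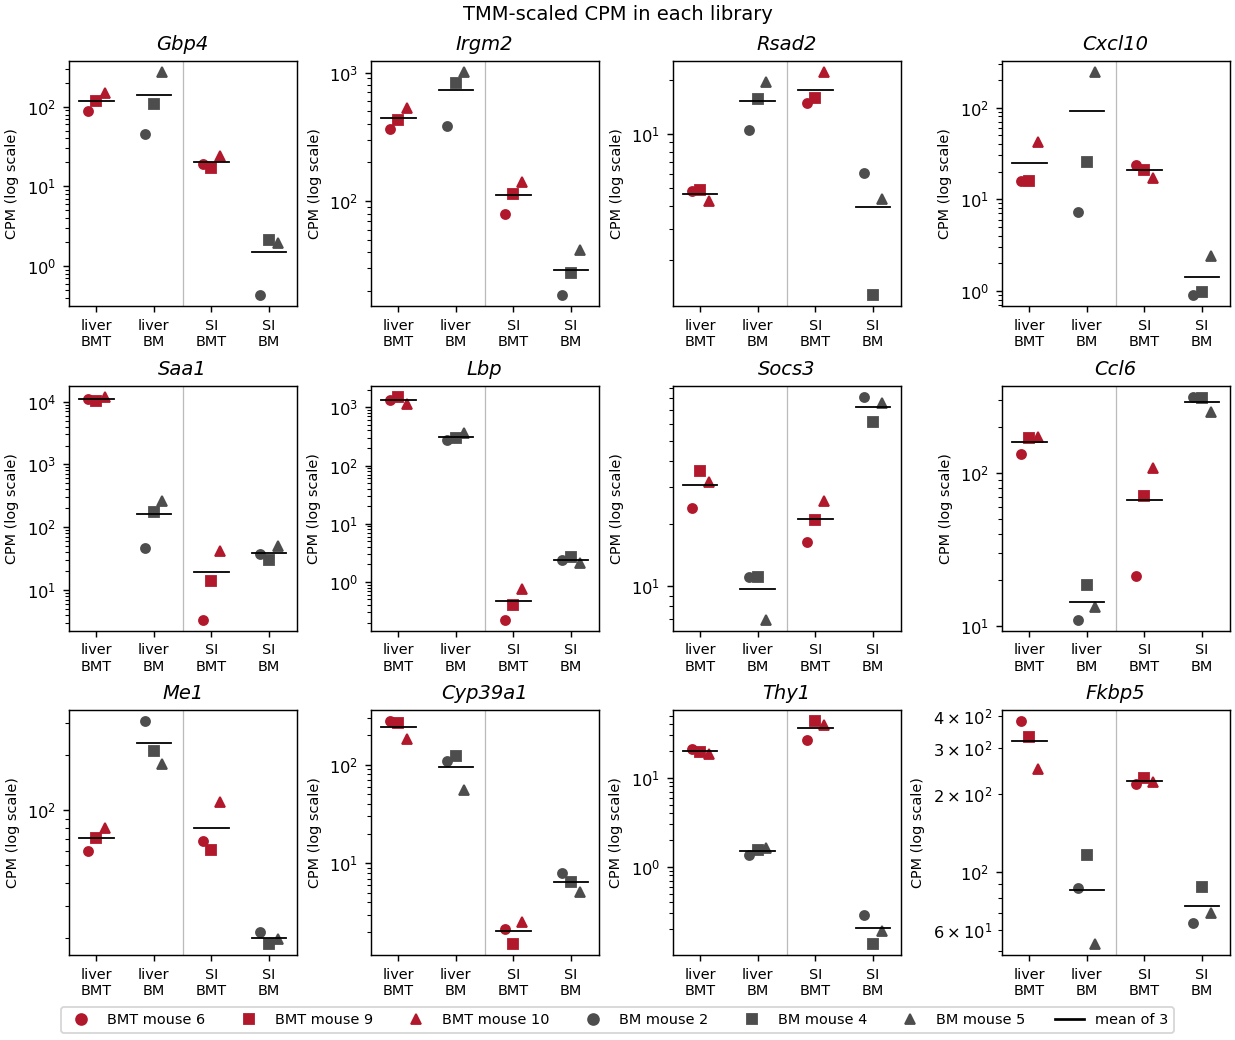
TMM-scaled CPM on a log axis in each of the 12 libraries for 12 genes, with the 3 libraries of each group as points shaped by mouse and their mean as a line. Irgm2, Gbp4 and Cxcl10 separate by treatment only in code SI, Saa1 only in liver, Rsad2, Me1, Lbp, Socs3, Ccl6 and Cyp39a1 in opposite directions in both tissues, and Thy1 and Fkbp5 rise in both.

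Metal-handling genes moved with them. Of 13 tested metallothionein and iron genes, 7 had a positive and 2 a negative called difference, and the 7 include 4 that the acute phase list also holds. Mt1 and Mt2, the zinc-binding metallothioneins, rose in liver by 2.35 ± 0.20 and 2.29 ± 0.26 log2 and were not called in code SI, with differences of 2.88 ± 0.38 and 2.82 ± 0.61. Slc40a1, the iron exporter ferroportin, had 348, 295 and 296 CPM in BMT livers, against 385, 269 and 184 CPM in BM livers. It had 0.785, 1.64 and 4.04 CPM in BMT code SI fractions, against 29.3, 39.8 and 34.9 CPM in BM code SI fractions. The liver groups overlapped, and the difference of 4.39 ± 0.57 (adjusted p = 0.00141) came with a fall in code SI (-3.96 ± 0.42, adjusted p = 8.23e-05). Hmox1, heme oxygenase 1, had a difference of -1.32 ± 0.38 and Ftl1, the ferritin light chain, one of -1.09 ± 0.28, both called negative. With BM mouse 5, BMT mouse 6 or BMT mouse 9 left out, no negative difference of this list was called, and 1 was without BM mouse 4.

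Neutrophil genes rose in BMT livers. Of 17 neutrophil genes only 6 passed the filter in both tissues, and all 6 rose in liver, while 2 rose and 1 fell in code SI and 4 had a positive and 1 a negative called difference. A gene could pass in liver through its BMT libraries alone, so the 6 rises are a description. Cd177, a surface glycoprotein of neutrophils, had 24.2, 10.01 and 6.02 CPM in BMT livers, against 0.117, 0.405 and 0.0528 CPM in BM livers. It had 6.73, 11.3 and 4.63 CPM in BMT code SI fractions, against 39.5, 25.2 and 26.8 CPM in BM code SI fractions. It separated in both tissues in opposite directions, with a difference of 7.97 ± 0.71 (adjusted p = 0.000288). In BM code SI the level of Cd177 exceeded the sum of the 8 neutrophil markers (0.384 to 1.51 CPM, given below), and its cell source there was not tested. Ltf, the iron-binding granule protein lactoferrin, had 99, 33.9 and 20.3 CPM in BMT livers, against 1.29, 0.751 and 1.32 CPM in BM livers. It had 1.42, 2.98 and 2.61 CPM in BMT code SI fractions, against 0.576, 0.879 and 0.959 CPM in BM code SI fractions, and rose in both tissues, more in liver (difference 3.64 ± 0.83, adjusted p = 0.0176). This call was lost without BM mouse 4 (adjusted p = 0.0690). Ly6g, the usual neutrophil surface marker, went the other way with a difference of -2.57 ± 0.72. Its level was 1.76, 1.36 and 0.816 CPM in BMT livers, against 0.352, 0.289 and 0.158 CPM in BM livers, and 10.9, 5.64 and 3.58 CPM in BMT code SI fractions, against 0.432, 0.271 and 0 CPM in BM code SI fractions. The negative call was lost without BM mouse 4, without any single BMT mouse, and without mouse as a term. The 8 neutrophil markers summed to 161 to 767 CPM in BMT and 13.5 to 22.2 CPM in BM livers, and to 4.17 to 12.2 CPM in BMT and 0.384 to 1.51 CPM in BM code SI fractions. Elane and Mpo, granule enzymes of immature neutrophils, had 0 counts in 5 of the 6 code SI libraries, and Ly6g made up most of the BMT code SI sum.

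Among the 14 tested monocyte and macrophage genes, 3 had a positive and 3 a negative called difference. Cd14, the endotoxin co-receptor, had 44.9, 71.1 and 34.7 CPM in BMT livers, against 4.87, 4.39 and 6.13 CPM in BM livers. It had 10.7, 15 and 7.48 CPM in BMT code SI fractions, against 10.8, 6.56 and 8.4 CPM in BM code SI fractions, a difference of 2.90 ± 0.25 (adjusted p = 0.000272), with separation in liver only. Itgam, the CD11b integrin chain, rose in liver (3.59 ± 0.47) and fell in code SI (-1.14 ± 0.32), a difference of 4.75 ± 0.70 (adjusted p = 0.0027). Outside this list, Pglyrp1, a peptidoglycan-binding granule protein, rose in liver with no call in code SI, with a difference of 5.19 ± 0.55. Pglyrp1 had 12.3, 4.98 and 5.4 CPM in BMT livers, against 0.235, 0.116 and 0.317 CPM in BM livers. Its levels were higher in code SI, with 94.7, 124 and 93.4 CPM in BMT and 144, 113 and 114 CPM in BM fractions. Itgam lost its code SI call without BMT mouse 6 or 9 or BM mouse 2 or 5 (adjusted p 0.0603 to 0.0855). The chemokine receptor genes Ccr2 and Cx3cr1 and the integrin gene Itgax had negative differences of -3.78 ± 0.86, -4.87 ± 0.78 and -2.05 ± 0.58. The 6 monocyte and macrophage markers summed to 244 to 413 CPM in BMT and 105 to 135 CPM in BM livers, whereas 4 Kupffer cell markers summed to 308 to 395 CPM in BMT and 249 to 348 CPM in BM livers, with overlap. How far myeloid cells make up the liver changes of these genes was not tested.

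Of 11 tested chemokine genes, 2 had a positive and 4 a negative called difference. The 2 positive ones were the mouse CC chemokines Ccl6 and Ccl9. Ccl6 had 133, 169 and 173 CPM in BMT livers, against 11, 18.6 and 13.4 CPM in BM livers. It had 21.3, 70.3 and 108 CPM in BMT code SI fractions, against 314, 307 and 252 CPM in BM code SI fractions. The groups separated in both tissues, upward in liver and downward in code SI, with a difference of 5.88 ± 0.48 (adjusted p = 0.000272). Ccl9 had a difference of 1.59 ± 0.26 (adjusted p = 0.00461) and fell in code SI, with no call in liver (adjusted p = 0.0512). The negative ones were Cxcl9, Cxcl10, Cxcl11 and Ccl4, which attracts immune cells (difference -2.59 ± 0.75).

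Other genes that rose in liver and fell in code SI were of diverse function, and those with the largest differences among genes of at least 5 CPM in 1 group are given. Mep1a, the brush border protease meprin A, had 38.6, 18.4 and 8.22 CPM in BMT livers, against 0.587, 0.809 and 0.739 CPM in BM livers. It had 248, 272 and 552 CPM in BMT code SI fractions, against 734, 827 and 753 CPM in BM code SI fractions, a difference of 5.93 ± 0.80 (adjusted p = 0.00177). Its liver levels stayed below those of every code SI library. Cacna1b, a neuronal calcium channel subunit, had a difference of 5.68 ± 0.69, Crybb3, a crystallin, one of 5.22 ± 0.48, and Peg3, an imprinted zinc finger gene, one of 4.90 ± 0.44. All 3 were under 2 CPM in every code SI library. The code SI calls (adjusted p in brackets) were lost for Mep1a without BMT mouse 6 or 9 (0.0549 to 0.0705), Cacna1b without BMT mouse 9 or 10 or BM mouse 4 or 5 (0.0590 to 0.0922) and Crybb3 without BMT mouse 6 or 9 or BM mouse 2, 4 or 5 (0.0615 to 0.143). Car4, a membrane carbonic anhydrase, rose in both tissues. It had 142 counts over the BMT livers and 0 over the BM livers, at least 50.3-fold higher against a floor of 3 counts for the group, and it had 227, 405 and 575 CPM in BMT code SI fractions, against 102, 88.1 and 99.9 CPM in BM code SI fractions. Its fitted difference of 6.97 ± 0.79 (adjusted p = 0.0017) is no bound.

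In the reverse pattern, a fall in liver and a rise in code SI, metabolic enzymes were among the leading genes of at least 5 CPM in 1 group. Me1, the malic enzyme that supplies NADPH for fat synthesis, had 60.03, 70.3 and 79.9 CPM in BMT livers, against 305, 210.2 and 179 CPM in BM livers. It had 68.1, 60.9 and 111 CPM in BMT code SI fractions, against 21.7, 18.5 and 19.7 CPM in BM code SI fractions. Neither tissue overlapped, the mean level was higher in BM livers than in any other group, and the difference was -3.65 ± 0.25 (adjusted p = 0.000272). Pygl, the liver glycogen phosphorylase, had 350.4, 259.6 and 283 CPM in BMT livers, against 527, 469.99 and 463 CPM in BM livers. It had 1.05, 1.61 and 4.17 CPM in BMT code SI fractions, against 0.54, 0.372 and 0.192 CPM in BM code SI fractions, a difference of -3.19 ± 0.59 (adjusted p = 0.00738). Ces2c, a carboxylesterase, had 0.909, 0.961 and 3.07 CPM in BMT livers, against 6.63, 11.9 and 9.88 CPM in BM livers. It had 159.9, 307 and 313 CPM in BMT code SI fractions, against 169, 156 and 139.8 CPM in BM code SI fractions, a difference of -3.33 ± 0.41 (adjusted p = 0.00113), with overlap in code SI between BMT mouse 6 and the BM mice. The liver calls of Ces2c and Pygl were lost when some single mice were left out (adjusted p 0.0582 to 0.0704 for Ces2c without BM mouse 4 or BMT mouse 6 or 9, and 0.0591 to 0.131 for Pygl without any of the mice 2, 4, 9 and 10). Adssl1, an adenylosuccinate synthase of muscle, differed by -3.90 ± 0.66 and Tcf24, a helix-loop-helix factor, by -2.67 ± 0.46. Both were low in code SI, where Adssl1 averaged 0.778 CPM in BMT and 0.0916 CPM in BM fractions, and Tcf24 0.830 and 0.408 CPM. The liver call of Tcf24 was lost without BM mouse 4 or any BMT mouse (0.0828 to 0.152), and its code SI call without any 1 of the 6 mice (0.0518 to 0.167), by DESeq2 (0.148) and with no low-count filter (0.114). The code SI call of Ces2c was lost without BMT mouse 9 or 10 or any BM mouse (0.0580 to 0.0934).

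A few genes of fat synthesis had a lower effect in liver than in code SI. Of 17 tested fatty acid synthesis genes, 4 fell and 1 rose in liver, 4 fell and 1 rose in code SI, and 3 had a called negative difference. The 3 made up 17.6% of the list, against 5.8% of all tested genes. Scd1, which makes monounsaturated fatty acids, had 18.1, 4.01 and 166 CPM in BMT livers, against 3519.8, 2447 and 2209 CPM in BM livers. It had 3.18, 0.852 and 4.97 CPM in BMT code SI fractions, against 11.5, 8.22 and 6.52 CPM in BM code SI fractions. It fell in both tissues, by 5.45 log2 in liver and 1.49 log2 in code SI, with a difference of -4.89 ± 0.65 (adjusted p = 0.00155) that reached an adjusted p of 0.0543 without mouse as a term. Scd1 lost its liver call without BMT mouse 6 or BM mouse 4 (adjusted p 0.0804 to 0.104). Scd1 lost its code SI call without BMT mouse 6 or BM mouse 2 or 4 (adjusted p 0.0741 to 0.138). Among 23 fatty acid oxidation genes, 5 had a negative and 1 a positive called difference (21.7% and 4.35%, against 5.8% and 9.95% of all tested genes). Acaa1b, a peroxisomal thiolase, fell in both tissues and more in liver (difference -1.96 ± 0.30, adjusted p = 0.00309), and Acadl, a mitochondrial dehydrogenase of long-chain fatty acids, rose in code SI with no call in liver (difference -1.27 ± 0.20, adjusted p = 0.00346). Pklr, the liver pyruvate kinase, fell in liver and rose in code SI (difference -1.83 ± 0.23, adjusted p = 0.00113), and Fbp1, a gluconeogenic phosphatase, fell in code SI with no call in liver (difference 1.97 ± 0.34, adjusted p = 0.0058). Pklr lost its liver call without BMT mouse 6, 9 or 10 or BM mouse 4 (adjusted p 0.0571 to 0.0856). Acaa1b lost its code SI call without BMT mouse 6 or BM mouse 2 or 4 (adjusted p 0.0542 to 0.118).

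A few cholesterol synthesis genes rose more in liver. Of 23 tested sterol synthesis genes, 8 rose and none fell in liver, and 7 rose and 1 fell in code SI. A positive difference was called for 5 (21.7%, against 9.95% of all tested genes) and a negative one for 1 (4.35%, against 5.8%). Without BMT mouse 9, 2 positive ones were called, 4 without BM mouse 2, and 3 without any other single mouse. The 8 rises in liver became 4 without BMT mouse 6, 3 without BMT mouse 9, 4 without BMT mouse 10 and 13 by DESeq2 or with no low-count filter. The 7 rises in code SI became 4 without BMT mouse 6, 3 without BM mouse 2, 4 without BM mouse 4 and 2 without BM mouse 5. Sqle, squalene epoxidase, had 142, 169 and 152 CPM in BMT livers, against 13.5, 40.3 and 10.5 CPM in BM livers. It had 174, 163 and 199 CPM in BMT code SI fractions, against 106, 133 and 128 CPM in BM code SI fractions, and rose in both tissues, with a difference of 2.55 ± 0.41 (adjusted p = 0.00427). The groups separated in both tissues. Mvd, a decarboxylase of the mevalonate pathway, rose in liver with no call in code SI, with a difference of 1.53 ± 0.30 (adjusted p = 0.01). Mvd lost its liver call without BMT mouse 6, 9 or 10 (adjusted p 0.0618 to 0.0691). Sqle lost its code SI call without BM mouse 2 or 5 (adjusted p 0.0507 to 0.0910).

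More detoxification genes fell than rose in both tissues, and those that differed did so in both directions. Of 29 tested xenobiotic genes, 14 fell and none rose in liver, 12 fell and 3 rose in code SI, and 4 had a positive and 3 a negative called difference. These differences were 13.8% and 10.3% of the list, near the 9.95% and 5.8% of all tested genes. Of all tested genes, 3.06% fell in liver and 10.4% in code SI. Cyp3a25, a cytochrome P450, had 1209, 699 and 494 CPM in BMT livers, against 2363, 1799 and 818 CPM in BM livers. It had 0.785, 0.492 and 2.92 CPM in BMT code SI fractions, against 71.6, 74.1 and 46.1 CPM in BM code SI fractions. The code SI groups were far apart and the liver groups overlapped, with a difference of 4.70 ± 0.73 (adjusted p = 0.00334). Gsta1, a glutathione S-transferase, had 0.242, 0.113 and 0.314 CPM in BMT livers, against 1.76, 1.56 and 4.28 CPM in BM livers. It had 5.98, 2.98 and 2.23 CPM in BMT code SI fractions, against 0.683, 0.406 and 0.384 CPM in BM code SI fractions, so it fell in liver and rose in code SI (difference -6.24 ± 0.69, adjusted p = 0.000748). Its close copy Gsta2 fell in liver by 3.07 log2, with a difference of -4.57 ± 0.45, and their reads may be shared. Sult1c2, a sulfotransferase, Aadac, an esterase of the endoplasmic reticulum, and Cyp2c68 fell in both tissues and more in code SI, with differences of 4.08 ± 0.53, 2.7 ± 0.54 and 2.29 ± 0.30. That of Aadac lost its call without BMT mouse 9 (adjusted p = 0.0544). The liver calls (adjusted p in brackets) were lost for Aadac without BMT mouse 6, 9 or 10 or BM mouse 2 or 4 (0.0562 to 0.125), Cyp2c68 without BMT mouse 6, 9 or 10 or BM mouse 2 or 4 (0.0671 to 0.122) and Gsta1 without BMT mouse 9 (0.0565). Of 10 tested carboxylesterases, 7 fell in liver and 7 fell and 1 rose in code SI. Ces1f fell more in liver (difference -2.84 ± 0.36) and Ces2g fell in code SI with no call in liver (difference 3.01 ± 0.29). Ces1f lost its code SI call without BM mouse 2 (adjusted p 0.114). These families hold near-identical genes, so single members are uncertain.

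The series' title names bile acids, and genes of their synthesis, transport and sensing were read against the 15.8% of all tested genes with a called difference. Of 17 bile acid synthesis genes 8 passed the filter in both tissues, and the difference was called for 1. Cyp39a1, a hydroxylase of oxysterols, had 276, 265 and 182 CPM in BMT livers, against 110.1, 122 and 55.1 CPM in BM livers. It had 2.13, 1.51 and 2.54 CPM in BMT code SI fractions, against 7.91, 6.49 and 5.14 CPM in BM code SI fractions. It rose in liver (1.32 ± 0.31, adjusted p = 0.0324) and fell in code SI (-1.61 ± 0.28, adjusted p = 0.00207) without overlap, a difference of 3.04 ± 0.34 (adjusted p = 0.000808). Cyp39a1 lost its liver call without BMT mouse 6 or 9 or BM mouse 4 (adjusted p 0.0598 to 0.119). The other 7 had differences of 0.12 to 0.62 with none called. For Cyp27a1, which starts the alternative pathway, the difference was 0.62 ± 0.34 with a 95% interval of -0.14 to 1.38, and for Baat, which conjugates bile acids to taurine and glycine, it was 0.24 ± 0.30 with an interval of -0.44 to 0.91.

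Of 18 bile acid and sterol transporters 10 passed the filter in both tissues, and 1 had a called difference. In liver 2 of the 10 fell and none rose, and in code SI 4 fell and 1 rose. Of all tested genes, 3.06% fell in liver and 10.4% in code SI. Abcc6, an efflux transporter, had 109.8, 145 and 155 CPM in BMT livers, against 151, 149.9 and 157 CPM in BM livers. It had 1.38, 3.74 and 4.66 CPM in BMT code SI fractions, against 10.2, 11.2 and 10.5 CPM in BM code SI fractions, a difference of 1.64 ± 0.30 (adjusted p = 0.00668). Slc10a2, the ileal uptake transporter of bile acids, rose in code SI, with 625, 418 and 894 CPM in BMT code SI fractions, against 264, 343 and 251 CPM in BM code SI fractions (log2 change 1.23 ± 0.26, adjusted p = 0.0056), and its difference was not called (difference 0.16 ± 0.51, interval -0.98 to 1.31). In liver Slc10a2 averaged only 1.48 CPM in BMT and 0.605 CPM in BM. Slc51b, 1 chain of the basolateral exporter, did not pass in either tissue and had a difference of -0.70 ± 0.33. Abcc2 and Abcc3, exporters of conjugates, had differences of -0.30 ± 0.36 and 0.50 ± 0.27, and Abcg5 and Abcg8, the paired sterol exporter, of 0.45 ± 0.33 and -0.35 ± 0.27.

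Of 12 tested genes of bile acid sensing, 4 had a positive called difference and none a negative one. Nr1h4, the bile acid receptor FXR, had 170.2, 201 and 145 CPM in BMT livers, against 109, 165 and 112 CPM in BM livers. It had 153, 183 and 175 CPM in BMT code SI fractions, against 146, 179 and 120.2 CPM in BM code SI fractions. The groups overlapped in both tissues, neither tissue passed, and the difference of 0.22 ± 0.21 had a 95% interval of -0.26 to 0.70. Its target Nr0b2, the repressor SHP, had a difference of 0.14 ± 0.47 with a wide interval of -0.91 to 1.19, and Mafg, another repressor that FXR induces, one of 0.01 ± 0.19. Vdr, the vitamin D receptor, which also binds lithocholic acid, had 2.67, 3.62 and 3.7 CPM in BMT livers, against 0.0587, 0.116 and 0.634 CPM in BM livers. It had 188, 265 and 319 CPM in BMT code SI fractions, against 357, 403 and 358 CPM in BM code SI fractions. The liver rise from a very low level (3.54 ± 0.60, adjusted p = 0.0109) gave a difference of 4.14 ± 0.52 (adjusted p = 0.00128), while the code SI groups separated downward without a call. The liver calls (adjusted p in brackets) were lost for Vdr without BMT mouse 9 or BM mouse 4 (0.0506 to 0.0547) and Fgfr4 without BMT mouse 6 or 9 (0.0681 to 0.0829). Fgfr4, the hepatocyte receptor for the ileal hormone Fgf15, rose in liver, with 50.04, 52.5 and 48.1 CPM in BMT livers, against 28.6, 35.8 and 27.7 CPM in BM livers. It had 10.8, 16.7 and 8.77 CPM in BMT code SI fractions, against 19.7, 20.3 and 16 CPM in BM code SI fractions, and its difference was 1.39 ± 0.25 (adjusted p = 0.00648). Klb, its co-receptor, fell in code SI, where no library reached 1 CPM, and overlapped in liver (difference 2.10 ± 0.39, adjusted p = 0.00744), and its code SI call was lost without BM mouse 2 (0.0535). Nr1i3, the receptor CAR, had a difference of 1.15 ± 0.30 (adjusted p = 0.0299) that lost its call without mouse as a term (adjusted p = 0.0637), on lane L002 (0.0676), by limma voom (0.0536) and without any mouse other than BM mouse 4 (0.0524 to 0.0672).

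**Figure D4:**
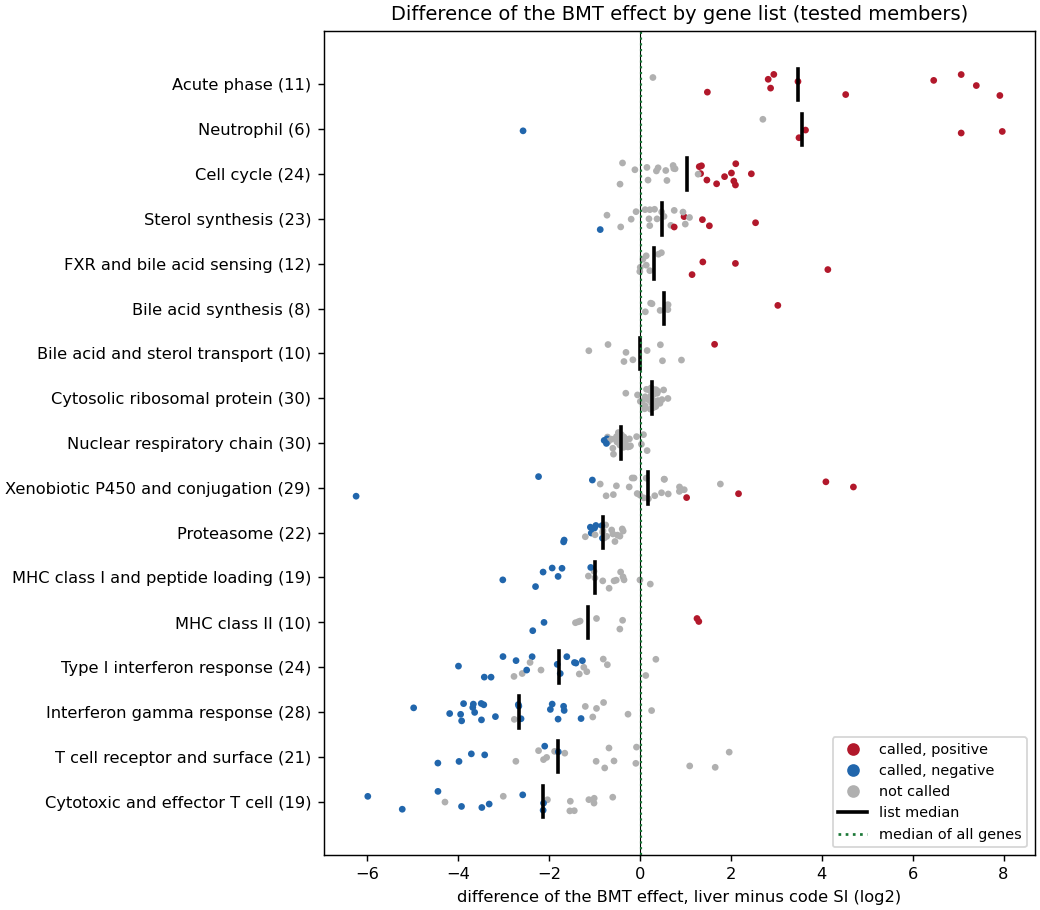
Difference of the BMT effect, liver minus code SI (log2), for the tested members of 17 gene lists, with the number tested in brackets, members as points coloured by their call, the list median as a bar and the median of all genes (0.03) as a dotted line. The acute phase list lies to the right (median 3.48) and the interferon gamma response list to the left (median -2.67), while the ribosomal protein (median 0.27) and bile acid synthesis (median 0.52) lists lie closer to 0.

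Many cell division genes rose in BMT livers, and some rose more than in code SI. Of 24 tested cell cycle genes, 15 rose in liver and 10 in code SI, none fell, and 11 had a positive called difference and none a negative one, with a list median of 1.03 log2. Bub1b, a kinase of the spindle checkpoint, had 4.3, 3.51 and 2.64 CPM in BMT livers, against 0.352, 0.405 and 0.528 CPM in BM livers. It had 67.4, 69.9 and 41.2 CPM in BMT code SI fractions, against 44.1, 36.9 and 40.7 CPM in BM code SI fractions. The BMT livers lay above the BM livers without overlap, but at lower levels than any code SI library, and the difference was 2.45 ± 0.29 (adjusted p = 0.000983). Mcm6, part of the replicative helicase, had 10.2, 8.76 and 6.84 CPM in BMT livers, against 2.99, 2.14 and 1.95 CPM in BM livers. It had 132, 138 and 76.6 CPM in BMT code SI fractions, against 124, 123 and 126 CPM in BM code SI fractions, a difference of 2.01 ± 0.25 (adjusted p = 0.0011), and Pclaf, which binds the sliding clamp of replication, one of 2.75 ± 0.34. The code SI groups overlapped for Bub1b and Mcm6. The T cell marker sums given above were higher in the same livers, and their part in the cell cycle levels was not tested. Without BMT mouse 6 the 11 calls became 7. The 15 rises in liver became 9 without BMT mouse 6, 8 without BMT mouse 9 and 9 without BM mouse 4. The 10 rises in code SI became 19 without BMT mouse 10, 4 without BMT mouse 6, 2 without BM mouse 4, 6 without BM mouse 2, and 7 without each other mouse.

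Of 21 tested cell death genes, 5 had a negative and 1 a positive called difference, against 5.8% and 9.95% of all genes. Mlkl, which opens the membrane in necroptosis, rose in code SI (1.57 ± 0.19) with no call in liver (-0.71 ± 0.54), a difference of -1.85 ± 0.54 (adjusted p = 0.0461). Of 22 p53 targets, 3 had a negative and 1 a positive called difference, with Ccng1, cyclin G1, at -1.22 ± 0.28 and Btg2, an antiproliferative gene, at 2.29 ± 0.41. Of 23 genes of the unfolded protein and amino acid response, 3 had a positive one, among them Asns, asparagine synthetase (difference 2.16 ± 0.51), and Xbp1, a regulator of the secretory pathway (difference 0.97 ± 0.24). The calls of Ccng1 (0.0505 to 0.0769 without BM mouse 4 or BMT mouse 6 or 10), Asns (0.0720 to 0.0774 without BMT mouse 6 or 9) and Xbp1 (0.0548 to 0.0863 without BM mouse 2 or 4 or BMT mouse 6 or 9) were lost, as adjusted p.

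Of genes that fell in liver with no call in code SI, those with the largest differences at 5 CPM or more in 1 group were Krt23, an epithelial keratin (difference -5.13 ± 0.57), Gsta2, S100g, a vitamin D dependent calcium-binding protein (difference -3.64 ± 0.42), Mme, the peptidase neprilysin (difference -3.08 ± 0.62), and Spry4, an inhibitor of growth factor signalling (difference -2.20 ± 0.45). S100g had 0.303, 0.226 and 0.753 CPM in BMT livers, against 5.52, 2.72 and 2.59 CPM in BM livers. It had 55.2, 24.1 and 119.9 CPM in BMT code SI fractions, against 45.4, 55.5 and 28.2 CPM in BM code SI fractions, with the code SI groups overlapping. Prom1, a membrane glycoprotein of progenitor cells, fell in both tissues and more in liver (difference -2.60 ± 0.48). Of those that fell in code SI with no call in liver, immunoglobulin genes left out, the leading ones beside Cyp3a25 and Slc40a1 were Pdzrn3, a ubiquitin ligase (difference 5.56 ± 0.71), Egr2, an early response transcription factor (difference 4.59 ± 0.64), and Csad, an enzyme of taurine synthesis (difference 4.17 ± 0.82). Pdzrn3 was low in code SI, with 0, 0.0328 and 0 CPM in BMT fractions, against 0.647, 0.44 and 0.384 CPM in BM fractions. It had 41 counts over the BM and 1 count over the BMT code SI fractions. The ratio of BM to BMT there was 42.2, with a wide counting interval of 7.17 to 1709. Egr2 had 1.09, 0.961 and 1.57 CPM in BMT livers, against 0, 0.116 and 0.475 CPM in BM livers. It had 6.36, 7.51 and 7.34 CPM in BMT code SI fractions, against 24.9, 30.3 and 30.6 CPM in BM code SI fractions. Its liver groups separated upward without a call. Ak4, a mitochondrial adenylate kinase, rose in code SI with no call in liver (difference -4.93 ± 0.63), and Eif4ebp3, a translation inhibitor, rose in both and more in liver (difference 2.87 ± 0.71). The difference lost its call without a single mouse for Eif4ebp3 (0.0764 to 0.0962, BMT mice 6 and 9), Csad (0.0525 to 0.0528, the same mice) and Spry4 (0.0573, BM mouse 4), as adjusted p. The liver calls (adjusted p in brackets) were lost for Krt23 without BMT mouse 6, 9 or 10 (0.0565 to 0.0762), Mme without BMT mouse 6 or 9 (0.0613 to 0.0686), S100g without BMT mouse 9 (0.0553) and Spry4 without BMT mouse 9 or 10 or BM mouse 4 (0.0776 to 0.0881).

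A shared T cell effect of like size could be bounded for 54 genes, which passed in both tissues in the same direction, had no call of the difference, and had a 95% interval of the difference within 1 log2 unit of 0. Fkbp5, a chaperone that glucocorticoids induce, had 380.2, 331 and 249 CPM in BMT livers, against 87.1, 116 and 53 CPM in BM livers. It had 218, 231 and 223 CPM in BMT code SI fractions, against 64, 88 and 70.1 CPM in BM code SI fractions. Both tissues separated, with rises of 1.90 ± 0.30 and 1.65 ± 0.16 log2 in liver and code SI and a difference of 0.35 ± 0.28 (interval -0.29 to 0.98). F2r, the thrombin receptor, rose by 1.91 ± 0.16 and 1.89 ± 0.22 log2 in liver and code SI (interval of the difference -0.48 to 0.67), and Emp1, an epithelial membrane protein, and Crip2, a LIM domain protein, also rose in both. Ephx1, microsomal epoxide hydrolase, had 334, 341 and 337 CPM in BMT livers, against 1320.4, 1042 and 1097 CPM in BM livers. It had 1.91, 2.07 and 3.03 CPM in BMT code SI fractions, against 6.91, 8.59 and 6.17 CPM in BM code SI fractions, falling by 1.78 and 1.58 log2 in liver and code SI (interval of the difference -0.77 to 0.51). Gstm2 and Gstm6, glutathione S-transferases, and Nat8f1, an acetyltransferase family member, fell in both with intervals of -0.90 to 0.51, -0.78 to 0.36 and -0.53 to 0.63. The liver calls (adjusted p in brackets) were lost for Emp1 without BMT mouse 6, 9 or 10 or BM mouse 4 (0.0552 to 0.0885) and Nat8f1 without BMT mouse 9 or 10 or BM mouse 4 (0.0538 to 0.0739). Crip2 lost its code SI call without BMT mouse 6 or BM mouse 4 (adjusted p 0.0581 to 0.0794).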

How the data were processed

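Raw counts per gene for 18 libraries were deposited by the authors in 1 table, of which 12 columns were used. Per the submitters' processing notes, the tools were FastQC 0.11.9, STAR 2.7.0e and featureCounts 1.6.3 with GRCm38.p5. Annotation release and strand setting are not given there. Per the labels, libraries were stranded and selected for polyadenylated RNA. A supplied table named 53274 of 53379 gene IDs.

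Genes passed filterByExpr (minimum count 10) within each tissue. In edgeR 4.0.16 (R 4.3.3), the 12 libraries were fitted with TMM factors, mouse, tissue, and treatment by tissue, and tested by the quasi-likelihood F test with Benjamini-Hochberg adjustment over all 12358 genes (threshold 0.05). BMT was compared with BM in each tissue in a fit of its 6 libraries. A standard error is the log2 change over the square root of F where F was at least 1, otherwise that of the fitted coefficient. Intervals are at 95%, and counting intervals cover counting error only. The floor of 3 counts was at most 0.159 CPM in a library.

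Mouse numbers come from the descriptions. Deviations of same-numbered libraries from their group means correlated at r = 0.0166 to 0.131, and the number was kept as the animal's. Within each of the 4 groups, no 2 libraries agreed within sampling noise (chi-square per degree of freedom of at least 15.1).

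Members and lists were chosen with earlier results of these data known. Among genes named by rule, the leading ones of each direction pattern had a called difference and at least 5 CPM on average in 1 of the 4 groups. Their within-mouse differences did not overlap between BMT and BM mice. They were no predicted models, pseudogenes or immunoglobulin or T cell receptor segments. The 2 called genes of each list with the smallest p were named without these further limits. The leading genes changed alike met the level and gene type limits but had no called difference. All tested bile acid genes were named whatever their result. Other named genes (among them Ifng, Ifngr1, Ifngr2, Prf1, Tbx21, Cxcr3, Stat3, Cxcl9, Cxcl11, Cd274, Cd74, H2-DMb1, H2-DMb2, Psmb8, Psmb9, Lbp, Il6st, Mt1, Mt2, Hmox1, Ftl1, Ly6g, Ccr2, Cx3cr1, Itgax, Ccl4 and Mlkl) were chosen after their values were seen. Some genes are not reported here. Near-identical genes may share reads.

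On simulated counts with 200 changed genes among 12358, the difference recovered 84.5% of 4-fold, 15.7% of 2-fold and 3.39% of 1.5-fold changes, with 5 false calls of 78. Alternatives used DESeq2 1.42.0, limma 3.58.1 voom, DESeq2 size factors, other filters, all 18 libraries, no mouse term, lane L002 alone, and each mouse left out.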

Additional observations from a re-analysis of the deposited data

Results flagged for a closer look

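Genes with called changes of opposite sign in the tissues stood out. The difference was called for each of them, but in the same libraries that gave the opposite calls, so it is no separate support. There were 93 that rose in BMT livers and fell in BMT code SI fractions, and 41 that fell in BMT livers and rose in BMT code SI fractions. In the first pattern the largest differences, among genes that averaged at least 5 CPM in 1 of the 4 groups, were 7.97 for Cd177, 5.93 for Mep1a, 5.88 for Ccl6, 5.68 for Cacna1b, 5.22 for Crybb3 and 4.90 for Peg3 on the log2 scale. In the second, under the same limit, they were -3.99 for Rsad2, -3.90 for Adssl1, -3.65 for Me1, -3.33 for Ces2c, -3.19 for Pygl and -2.67 for Tcf24. Cacna1b, Crybb3, Peg3, Adssl1, Pygl and Tcf24 met that limit in liver only, and their levels in code SI were low. The liver calls of Ces2c, Pygl and Tcf24 were each lost when some single mice were left out, the code SI call of Ces2c without BMT mouse 9 or 10 or any BM mouse, and that of Tcf24 without any 1 of the 6 mice.

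Albumin, a hepatocyte gene outside the comparisons, had a level of 77 CPM in the code SI library of BMT mouse 10, against at most 0.885 CPM in the other 5 code SI libraries. Its part in the results was not tested.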

How the results depend on the processing

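The counts of called differences, 1230 positive and 717 negative, stayed within 1.5 times under DESeq2 size factors (1236 and 701), DESeq2 (1416 and 832), limma voom (1232 and 814), a minimum of 1 CPM (1039 and 601), all 18 libraries (1617 and 966) and lane L002 alone (1219 and 829, with 1379 of the 1947 genes shared). With no low-count filter, 23140 genes were tested and the counts were 1930 and 1087. Leaving out 1 mouse gave 596 to 1156 positive and 294 to 777 negative ones, fewest positive without BMT mouse 6 (596) and fewest negative without BM mouse 4 (294). In liver it gave 459 to 1554 higher and 110 to 1061 lower genes over all genes of that fit, fewest without BMT mouse 9 and most without BM mouse 5. In code SI it gave 1030 to 1913 higher and 1056 to 1862 lower genes, fewest without BM mouse 4 and most without BMT mouse 10. DESeq2 gave 768 lower genes in liver. The cause of these shifts was not tested, beyond the loss of libraries. Without mouse as a replicate block the counts were 1302 and 870, with 1787 genes shared. With the title number as a block, liver had 1125 higher and 505 lower genes and code SI 1501 and 1528. That number pairs different mice, so nothing is read from it. For smaller lists, leaving out 1 mouse gave 2 to 6 negative chemokine calls (4 with all mice), 1 to 3 of monocyte genes (3), 2 to 5 of fatty acid oxidation (5), 2 to 5 of cell death (5) and 0 to 2 of p53 targets (3), and 2 to 7 positive xenobiotic calls (4) and 0 to 4 of the unfolded protein response (3). Of 103 named genes with a called difference, 75 kept it under every alternative and none reversed. The 28 that lost it did so in 82 of 1428 fits. With 50 bases after the start added, the motif shares were 3.44% (ISRE core), 8.30% (GAS) and 1.47% (kappa B) of promoters. With 3 mice a group, simulated differences under 4-fold were mostly missed, so an uncalled gene is not shown to be alike in the tissues.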

Other observations

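Of 15 tested complement genes, 3 rose and 1 fell in liver, 3 rose and 4 fell in code SI, and 4 had a positive and 2 a negative called difference. With 1 mouse left out, 3 to 5 complement genes were positive and 0 to 2 negative. The 2 with the smallest p were C1rl, a protease related to C1r (difference 2.16 ± 0.30, adjusted p = 0.0019), and Cfi, the protease that inactivates C3b (difference 2.82 ± 0.52, adjusted p = 0.00758). Of 8 tested epithelial defence genes, 1 rose and 1 fell in liver, 5 rose and 2 fell in code SI, and 2 had a positive and 3 a negative called difference. With 1 mouse left out, 1 to 2 of them were positive and 1 to 3 negative. Ly6e, a membrane protein that interferon induces, had 1231, 1500.1 and 1671 CPM in BMT livers, against 2057, 2386 and 2713 CPM in BM livers. It had 179, 315 and 139 CPM in BMT code SI fractions, against 33, 29.9 and 47.1 CPM in BM code SI fractions, a difference of -3.17 ± 0.36 (adjusted p = 0.000836). Nos2, the inducible nitric oxide synthase, had 1.03, 0.905 and 1.19 CPM in BMT livers, against 0.117, 0.0578 and 0.845 CPM in BM livers. It had 46.5, 42.2 and 40.8 CPM in BMT code SI fractions, against 141, 116 and 124 CPM in BM code SI fractions, a difference of 3.15 ± 0.64 (adjusted p = 0.0105), so the 2 genes lay on opposite sides. Of 17 checkpoint ligands and cytokine receptors, 3 had a positive and 2 a negative called difference, Cd274, Il6ra and Socs3 among them.

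Carbohydrate and amino acid genes had more calls in code SI than in liver. So did all tested genes, of which 6.59% rose and 3.06% fell in liver, and 11.5% rose and 10.4% fell in code SI. Of 19 tested gluconeogenesis and glycolysis genes, 2 fell in liver, 11 rose and 1 fell in code SI, and 1 had a positive and 3 a negative called difference. Of 16 amino acid and urea cycle genes, none passed in liver by edgeR (3 at an unadjusted p below 0.05), 3 rose and 6 fell in code SI, and 4 had a positive and 2 a negative called difference. The 4 became 0 without BMT mouse 6, 1 without BMT mouse 9 or BM mouse 4, and 2 without BMT mouse 10, BM mouse 2 or BM mouse 5. Gpt, alanine transaminase, had one of -1.53 ± 0.28 (adjusted p = 0.00752), and Oat, ornithine aminotransferase, one of 1.80 ± 0.42 (adjusted p = 0.0204) that was lost without BMT mouse 6 (0.0684) or 9 (0.0570). Of 13 lipoprotein and lipid binding genes, 3 rose and 1 fell in liver, and 6 rose and 1 fell in code SI. In this list 2 had a positive and 3 a negative called difference, with Abca1, the exporter that loads HDL with cholesterol, at 2.46 ± 0.53, and Sar1b, a GTPase of chylomicron export, at -1.0 ± 0.20. The call of Abca1 was lost without BMT mouse 6 or 9 (adjusted p 0.0560 to 0.0630) and that of Sar1b without BM mouse 4 (0.0722). Of 15 metabolic nuclear receptors, Ppard (difference 1.12 ± 0.26) and Rora (difference -1.86 ± 0.43) were called. Ppard lost its call without BMT mouse 6 or 9 or on lane L002 (adjusted p 0.0565 to 0.0688), and Rora without BMT mouse 6, without BM mouse 4 or with all 18 libraries (0.0582 to 0.103).

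None of 30 cytosolic ribosomal protein genes and none of 13 mitochondrially encoded genes had a called difference by edgeR, with 3 and 4 of the mitochondrial genes falling in liver and in code SI. At an unadjusted p below 0.05 the difference was positive for 1 gene of each list, and by DESeq2 it was called for 0 ribosomal genes and 1 mitochondrial gene. Of 30 nuclear genes of the respiratory chain, 3 had a negative called difference, among them Ndufb8 (difference -0.72 ± 0.20) and Uqcrc2 (difference -0.78 ± 0.22), both of which lost the call without most single mice. The 3 were 10% of the list, against 5.8% of all tested genes. Of 13 tight junction genes 2 had a positive called difference, Tjp3 (difference 1.22 ± 0.25) and Cgn (difference 0.92 ± 0.27). They were 15.4% of the list, against 9.95% of all tested genes. Tjp3 lost its call without BM mouse 4 (adjusted p = 0.0610), and Cgn without any BMT mouse, without BM mouse 4 or 5 and on lane L002 (0.0648 to 0.158), with DESeq2 size factors (0.0506) and at a minimum of 1 CPM (0.0503). Of 7 tested endothelial genes, Vwf, von Willebrand factor, had a positive one (difference 1.51 ± 0.38) and Icam1, an adhesion ligand of leukocytes, a negative one (difference -2.0 ± 0.39). Vwf lost its call without BMT mouse 6 or 9 or BM mouse 4 (adjusted p 0.0912 to 0.120), and Icam1 on lane L002 (0.0651). Of 11 collagen and matrix genes, 6 rose in liver and 2 in code SI, and 3 had a positive called difference, with Col1a2 at 2.17 ± 0.47 and Col4a1 at 2.50 ± 0.63. With 1 mouse left out, 1 to 6 of the list were called positive. Col1a2 lost its call without BMT mouse 9 (adjusted p = 0.0600) and on lane L002 (0.0881), and Col4a1 without BMT mouse 6 or 9, without BM mouse 4 or 5 and on lane L002 (0.0610 to 0.0831). Stromal marker sums were 167 to 189 CPM in BMT and 127 to 219 CPM in BM livers, with overlap, and 0.561 to 8.28 CPM in BMT and 2.98 to 7.88 CPM in BM code SI fractions, and their part was not tested.

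In both tissues 4 erythroid markers were lower with T cells. They summed to 12.6 to 43.1 CPM in BMT and 83.6 to 129 CPM in BM livers, and to 0.187 to 1.88 CPM in BMT and 2.84 to 19.1 CPM in BM code SI fractions, without overlap in either tissue. Lyz1, the Paneth cell lysozyme, averaged 696 CPM in BMT and 4772 CPM in BM code SI fractions, and Defa24, a Paneth cell defensin, averaged 952 and 3744 CPM.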
